A study of Homo sapiens with 18 samples.

Results

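EDN2, DIO2, ADGRF1 and RERG are 4 genes selected on their response to OTX015: their signal was strongly lower with the drug in MDA-MB-468 cells and was not lower in MDA-MB-231 cells. They are 4 of the 12920 genes tested, and 8 of the 47231 probes on the array are annotated to them under current or older symbols (ADGRF1 was formerly GPR110), of which 7 were tested. OTX015 is a small molecule that blocks the bromodomains of the BET proteins. MDA-MB-231 and MDA-MB-468 are established cell lines from triple-negative breast cancers. Both were grown in vitro and received no treatment, the vehicle DMSO, or OTX015 at 75 nM (MDA-MB-231) or 650 nM (MDA-MB-468), for 4, 8 or 24 h. RNA was hybridized on 18 Illumina bead arrays, 1 for each line, treatment and time, so that the 3 times stand in for replicates (n = 3 in each group). Nothing in the labels says whether they came from separate cultures, and a p-value here measures the spread between these arrays. Neither line was profiled at the dose given to the other, so line and dose cannot be told apart.

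BET proteins bind acetylated lysines on histones and help to recruit the transcription machinery, and BET inhibitors displace them. The 4 genes belong to separate systems. EDN2 encodes endothelin-2, a secreted vasoactive peptide that acts on endothelin receptors. DIO2 encodes the type II iodothyronine deiodinase, a selenoenzyme that turns thyroxine into the active hormone triiodothyronine inside the cell, and its transcription is known to respond to cyclic AMP. ADGRF1 encodes an adhesion G protein-coupled receptor. RERG encodes a RAS-like GTPase that was described as estrogen-regulated and growth-inhibitory in breast cancer cells.

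The promoters of the members are shown because each gene was chosen for a fall with OTX015 in MDA-MB-468. Sequences came from RefSeq (GRCh38.p14), and 3 of the 4 genes matched, with 4 promoters in all. Each covers 250 bases before the start site and 50 after it, written 5′ to 3′ on the minus strand that the genes are read from. Capitals mark matches to the cyclic AMP response element TGACGTCA, the AP-1 site TGANTCA, the E-box CACGTG, the palindromic estrogen response element or the TATA box TATAAA, searched on both strands.
EDN2 (chr1:41484634-41484933): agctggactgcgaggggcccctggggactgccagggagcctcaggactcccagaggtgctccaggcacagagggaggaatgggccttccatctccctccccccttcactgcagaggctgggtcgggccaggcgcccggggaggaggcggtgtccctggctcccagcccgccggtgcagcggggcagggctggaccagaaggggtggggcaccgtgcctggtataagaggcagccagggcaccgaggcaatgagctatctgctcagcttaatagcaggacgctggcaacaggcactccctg
DIO2 (chr14:80212129-80212428): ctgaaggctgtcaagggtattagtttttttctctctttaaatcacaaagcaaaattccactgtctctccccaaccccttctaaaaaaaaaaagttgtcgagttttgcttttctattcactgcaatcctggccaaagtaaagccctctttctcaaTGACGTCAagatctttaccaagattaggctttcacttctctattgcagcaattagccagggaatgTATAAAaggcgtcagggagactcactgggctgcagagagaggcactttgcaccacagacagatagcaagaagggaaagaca
ADGRF1 (chr6:47042283-47042582): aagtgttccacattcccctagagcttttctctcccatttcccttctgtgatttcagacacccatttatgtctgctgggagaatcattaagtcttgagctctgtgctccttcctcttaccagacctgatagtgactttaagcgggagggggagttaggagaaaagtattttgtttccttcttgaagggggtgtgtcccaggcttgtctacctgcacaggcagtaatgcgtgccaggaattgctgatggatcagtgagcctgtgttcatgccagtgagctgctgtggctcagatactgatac

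The EDN2 window had a GC content of 68.3% and 11 CpG dinucleotides, the DIO2 window 42.3% and 3, and the ADGRF1 window 48.3% and 2. Over all 35116 promoters of the table the medians were 58.7% and 14. The DIO2 window held a cyclic AMP response element that begins 96 bases before the start site (at -96) and a TATA box at -31. A further DIO2 promoter (chr14:80211455-80211754) held an AP-1 site, TGACTCA, at +13. The EDN2 and ADGRF1 windows held none of the 5 motifs as spelled here. Of all promoters, 1.85% held the cyclic AMP response element, 7.71% the AP-1 site, 7.26% the E-box, 0.0570% the estrogen response element and 11.5% the TATA box. A match is a run of letters and no sign of binding, and no array value here bears on these sites.

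The epithelial genes CDH1, EPCAM, KRT19 and EGFR were higher on every array of MDA-MB-468 than on any of MDA-MB-231, and the mesenchymal genes VIM, ZEB1 and AXL were lower. KRT18, also epithelial, overlapped between the lines, and SPARC, the remaining mesenchymal marker, lay below the floor on all 18 arrays. Triple-negative cancers are defined clinically by the lack of the estrogen, progesterone and HER2 receptors. Among the genes of these receptors, PGR was below the floor on all arrays and ERBB2 was above it on all arrays. ESR1 was above it on 3 of 9 MDA-MB-468 arrays and 0 of 9 MDA-MB-231 arrays. These are RNA levels, which do not measure the receptors of the clinical definition. The floor is the background level of an array, the 95th percentile of 457 olfactory receptor probes, which no cell of this kind is thought to express. It ran from 6.31 to 6.46 on the log2 scale. The mean scanner signal of an array was 316 to 409 for MDA-MB-231 and 174 to 503 for MDA-MB-468, where the 8 h array with OTX015 was the dimmest. The 4 h arrays without drug stood apart in MDA-MB-468, with 456 tested probes lower by over 1 log2 than on all 4 later arrays without drug. None of the 7 tested member probes was among them (0 of 7).

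In MDA-MB-468 the levels with OTX015 lay below every level without it for all 4 genes. In bulk RNA, fewer cells with a transcript and less transcript per cell cannot be told apart. Levels are log2 intensities at 4, 8 and 24 h from the brightest probe of each gene, with 50 added to the intensity before the log, which shortens the differences of dim probes. Levels of different probes cannot be set against each other.

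EDN2 (probe ILMN_1680814) had 8.36, 8.20 and 7.96 in untreated MDA-MB-468 cells. With DMSO it had 8.35, 8.08 and 7.84. With OTX015 it had 7.04, 6.51 and 6.40. The DMSO arrays followed the untreated ones within 0.12, and the highest OTX015 array lay 0.80 under the lowest array without drug. At 8 and 24 h the OTX015 arrays were only 0.05 and 0.03 above the floor. The log2 difference of OTX015 from DMSO was -1.31, -1.58 and -1.44 at the 3 times, a mean of -1.44 ± 0.13 (SD, n = 3). It was -1.87 with an offset of 16 and -1.12 in the deposited values. These differences chose the gene and carry no test.

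DIO2 (probe ILMN_1737650) had 8.14, 8.20 and 7.61 without treatment and 8.05, 7.88 and 7.75 with DMSO. With OTX015 it had 6.68, 6.33 and 6.08. The deiodinase gene was thus 0.36 above the floor at 4 h and 0.13 and 0.28 below it at 8 and 24 h. The highest OTX015 array lay 0.93 under the lowest array without drug. Its difference from DMSO was -1.37, -1.56 and -1.67, on average -1.53 ± 0.15 (SD, n = 3). Since its signal went under the floor at 8 and 24 h, this size rests on the offset: it was -2.10 with an offset of 16 and -1.17 in the deposited values.

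ADGRF1 (probe ILMN_1744299) had 9.49, 9.06 and 8.95 without treatment and 9.22, 9.11 and 8.97 with DMSO. With OTX015 it had 7.95, 7.37 and 7.68. The receptor gene was lowest at 8 h and stayed 1.63, 0.91 and 1.32 above the floor. The gap between the arrays with and without drug was 0.996. The difference from DMSO was -1.27, -1.73 and -1.29, on average -1.43 ± 0.26 (SD, n = 3), which left 37.1% of the DMSO level. That percentage depends on the processing, as the mean was -1.60 with an offset of 16 and -1.20 in the deposited values.

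RERG (probe ILMN_1746359) had 10.13, 10.05 and 9.87 without treatment and 9.87, 9.83 and 9.74 with DMSO. With OTX015 it had 8.84, 7.70 and 8.09. The GTPase gene remained 2.52, 1.24 and 1.73 above the floor, and the arrays with and without drug lay 0.90 apart. Its difference from DMSO was -1.03, -2.13 and -1.64, on average -1.60 ± 0.55 (SD, n = 3), or 32.9% of the DMSO level. The mean was -1.73 with an offset of 16 and -1.41 in the deposited values, so this percentage depends on the processing too. The largest difference fell on the 8 h array with the lowest mean signal, whose part in the value was not tested. Without the 8 h arrays the mean difference was -1.34. ADGRF1 and RERG were therefore lowered and not silenced, and of the 4 genes DIO2 alone went under the floor.

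**Figure D1:**
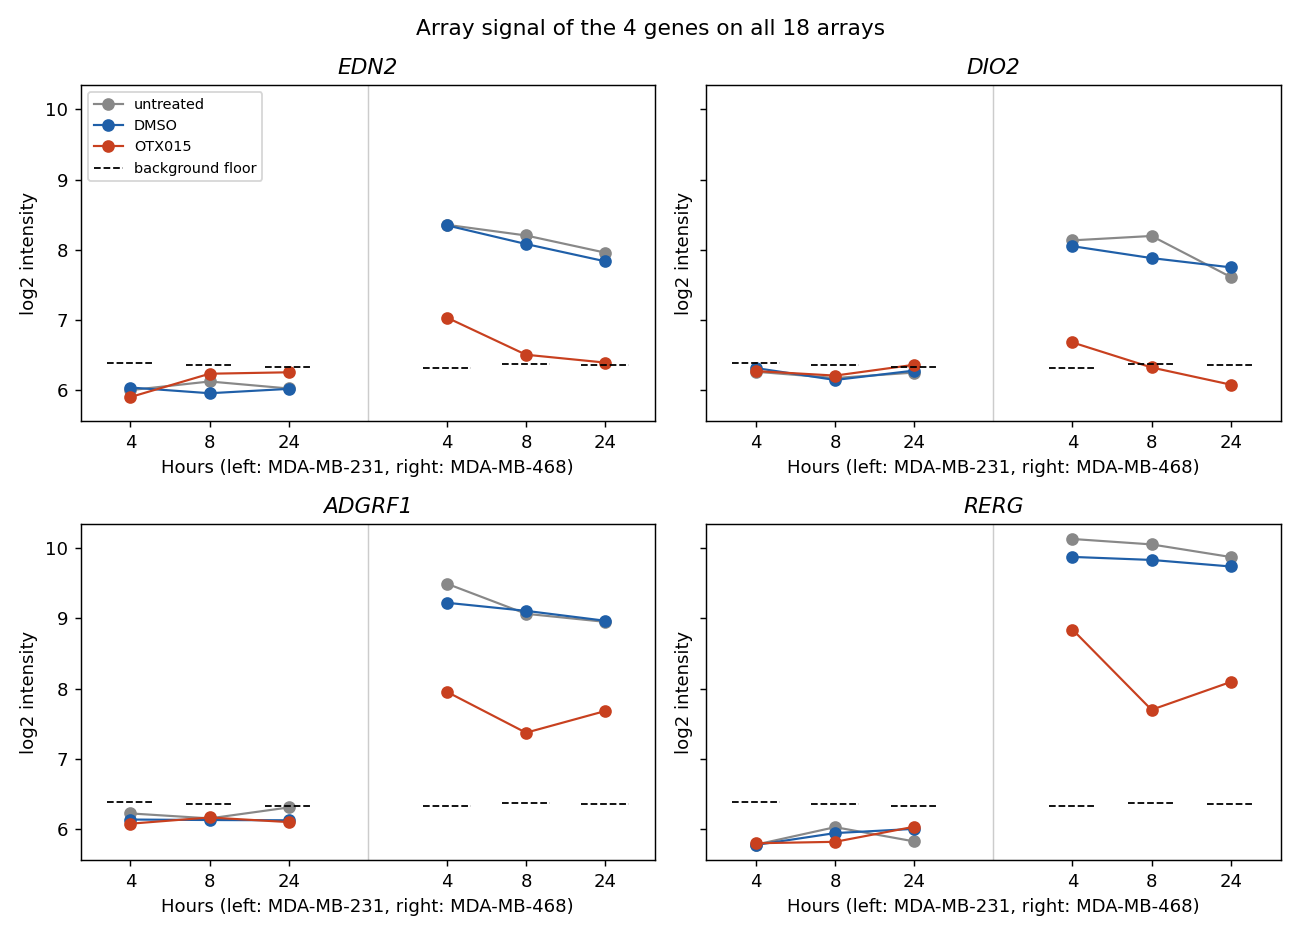
Log2 intensity (y axis) of the brightest probe of each gene against hours (x axis) on all 18 arrays, MDA-MB-231 on the left of each panel and MDA-MB-468 on the right. Points are single arrays coloured by treatment, and dashes are the mean of the 3 floors at each time. The OTX015 points of MDA-MB-468 lie under all points without drug, and the MDA-MB-231 points lie at or under the floor, with DIO2 above the floor of its own array on 1 of 9.

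Measured against the untreated arrays, the mean differences with OTX015 were -1.53 for EDN2, -1.62 for DIO2, -1.50 for ADGRF1 and -1.81 for RERG. On these brightest probes the vehicle alone moved the genes far less. DMSO minus untreated ran from -0.12 to -0.01 for EDN2, from -0.31 to 0.14 for DIO2, from -0.27 to 0.04 for ADGRF1 and from -0.26 to -0.13 for RERG. The RERG level was lower with DMSO than without it at all 3 times, by less than the smallest of its differences with OTX015.

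**Figure D2:**
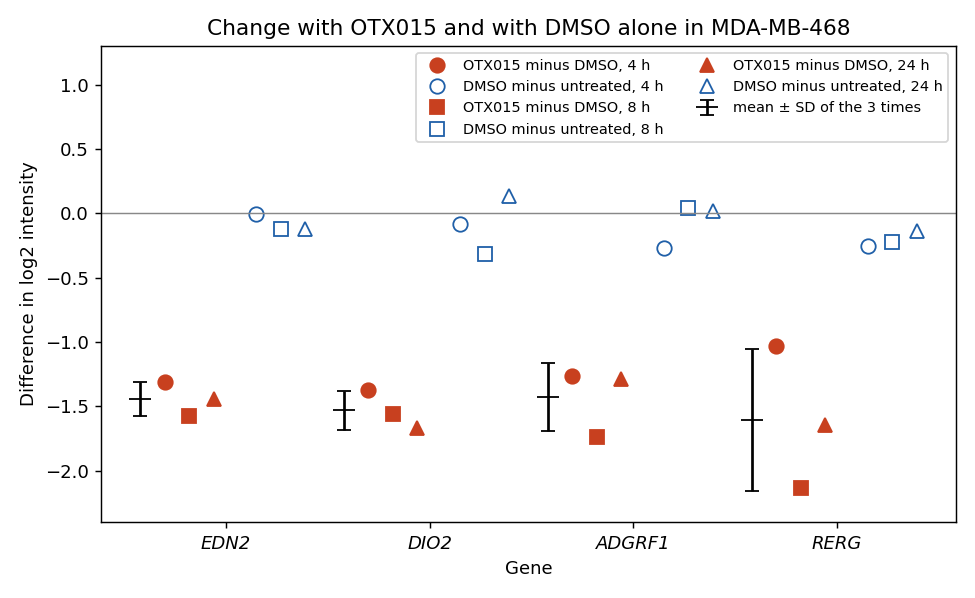
Difference in log2 intensity (y axis) for the brightest probe of each gene (x axis) in MDA-MB-468. Filled symbols are OTX015 minus DMSO and open symbols are DMSO minus untreated at 4, 8 and 24 h, and black bars are the mean ± SD of the 3 filled symbols. All 12 filled symbols lie between -2.13 and -1.03, and all 12 open symbols between -0.31 and 0.14.

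A call elsewhere in this text means an adjusted p of at most 0.05 from limma and a log2 change of at least 0.5. By it 3.34% of all genes fell with OTX015 in MDA-MB-468 and 2.52% rose, and nothing is read from the members' place among them. All 4 lay among the 11 largest mean falls of 12920 genes, a place that follows from choosing them for a strong fall. Their order there is not given, since EDN2 and DIO2 came down to the floor. The level of the 4 genes in MDA-MB-468 went with each other over the 9 arrays, with r from 0.96 to 0.99, which is a description, since the arrays share the drug contrast that chose the genes.

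In MDA-MB-231 the 4 genes were at background. EDN2 ranged from 5.91 to 6.26 over the 9 arrays with a median of 6.03, DIO2 from 6.15 to 6.36 with a median of 6.27, ADGRF1 from 6.08 to 6.31 with a median of 6.14 and RERG from 5.78 to 6.03 with a median of 5.83. A single one of these values lay above its floor (1 in all), that of DIO2 on the OTX015 array of 24 h, by 0.03. A fall cannot be measured in a gene that is not above background, so these arrays do not show how the genes respond in MDA-MB-231, and no fold is given there. Among all 432 genes that fell in MDA-MB-468, 69 (15.97%) lay below the floor on every array of MDA-MB-231. The share was 5.54% of the 325 genes that rose and 6.997% of all genes tested. A gene below the floor throughout MDA-MB-231 was tested only if it was above the floor in MDA-MB-468. That lets it show a fall there, so these shares are a description and nothing is read from their difference.

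For ADGRF1 and RERG the order of the levels was thus MDA-MB-468 without drug, MDA-MB-468 with OTX015 and MDA-MB-231. For EDN2 and DIO2 the drugged MDA-MB-468 cells, which came down to the floor, are given no order against MDA-MB-231. Untreated and DMSO cells of MDA-MB-468 overlapped for every gene but did not overlap the drugged cells. The OTX015 arrays of EDN2, 6.40 to 7.04, lay above its MDA-MB-231 range, but at 8 and 24 h they were only 0.05 and 0.03 above the floor. Before normalization their EDN2 intensities at 8 and 24 h, 82.2 and 113, did not exceed the MDA-MB-231 range of 93.3 to 120. The arrays differed in brightness, with floors before normalization of 81.1 and 111 there against 114 to 125 for MDA-MB-231. These intensities therefore give no order between the lines either. The OTX015 arrays of DIO2, 6.08 to 6.68, overlapped its MDA-MB-231 range. Groups of MDA-MB-231 were all within background and have no order.

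The levels before any treatment are given as a description with no test. A gene at background in MDA-MB-231 could enter the measured genes and show a fall only by being high in MDA-MB-468, so a difference between the lines was fixed by the choice. Of all genes 20.3% were called higher in untreated MDA-MB-468, and nothing is read from the members' own calls. What the arrays add is the size of the levels.

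RERG averaged 10.02 ± 0.13 (SD, n = 3) in untreated MDA-MB-468 cells and 5.88 ± 0.13 (SD, n = 3) in MDA-MB-231, a difference of 4.14 and at least 12.7-fold. ADGRF1 had 9.17 ± 0.29 (SD, n = 3) against 6.23 ± 0.08 (SD, n = 3), at least 7.04-fold. For EDN2 the means were 8.17 ± 0.20 (SD, n = 3) and 6.05 ± 0.07 (SD, n = 3), at least 3.53-fold. DIO2 had the smallest margin, 7.98 ± 0.32 (SD, n = 3) against 6.23 ± 0.05 (SD, n = 3), at least 3.09-fold. Each bound sets the level in MDA-MB-468 against the floor of the MDA-MB-231 arrays or the gene's own signal, whichever was higher. The bounds hold only for the processing used here. On the log2 scale they were 3.66 for RERG, 2.82 for ADGRF1, 1.82 for EDN2 and 1.63 for DIO2. In the deposited values the whole difference between the untreated lines was smaller, at 3.36, 2.37, 1.62 and 1.35.

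Without drug none of the 4 genes was called as changed in MDA-MB-468 between 4 and 24 h. On the brightest probes, the untreated and DMSO arrays gave a difference of -0.45 for EDN2 (adjusted p = 0.0122 from limma) and -0.41 for DIO2 (adjusted p = 0.0452). It was -0.40 for ADGRF1 (adjusted p = 0.0348) and -0.20 for RERG (adjusted p = 0.139). None reached a log2 difference of 0.5 (0 of 4 called), and 5.36% of all genes were called lower at 24 h. EDN2, DIO2 and ADGRF1 had both an adjusted and an unadjusted p under 0.05 (3 of 4). The share of all genes under that level was not counted, so nothing is read from this number. DIO2 passed without the DMSO array of 24 h, at -0.58, and had -0.24 without the untreated one. ADGRF1 had -0.25 without the untreated array of 4 h and -0.55 without the DMSO one, neither past the threshold on adjusted p. With the arrays scaled by their medians all 4 passed, at -1.04, -0.95, -1.10 and -0.93, while the median of all probes tested went from -0.05 to -0.34 in the same contrast. Relative to the latter, the members had -0.70, -0.61, -0.76 and -0.59. Other probes did not all share the direction of the brightest. The DIO2 probe ILMN_1749162, below the floor at 4 h, had 0.47 (adjusted p = 0.0157 from limma). The ADGRF1 probes ILMN_1787932 and ILMN_2241124 had 0.18 (adjusted p = 0.584) and -0.30 (adjusted p = 0.0474). A change with time of DIO2 or ADGRF1 as a gene is therefore not read from these arrays.

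**Figure D3:**
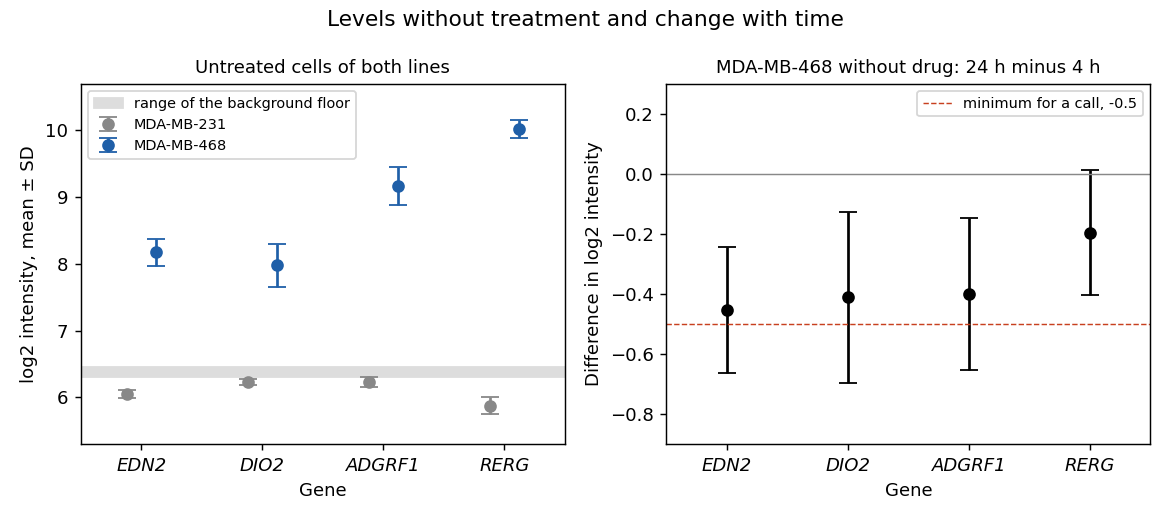
On the left, log2 intensity (y axis, mean ± SD of 3 arrays) of each gene (x axis) in untreated cells of both lines, over the grey range of the floor, with MDA-MB-231 below it for every gene. On the right is the difference in log2 intensity (y axis) of 24 h from 4 h without drug in MDA-MB-468. It is that of the brightest probes, with 95% confidence intervals from limma. The points lie between -0.45 and -0.20, above the dashed line at -0.5, and the intervals of EDN2, DIO2 and ADGRF1 cross that line.

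ADGRF1 has 4 probes on the array and DIO2 has 2, and they did not all carry the same signal. For ADGRF1, probe ILMN_2241124, which is annotated to the same transcript as the brightest, had 9.24, 9.03 and 8.94 without treatment in MDA-MB-468 and 9.29, 8.94 and 8.99 with DMSO. With OTX015 it had 8.31, 7.38 and 7.77. Its mean difference from DMSO was -1.25 ± 0.29 (SD, n = 3). These ADGRF1 probes went together over the 9 arrays (r = 0.98, a description).

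Probe ILMN_1787932, annotated to another ADGRF1 transcript, gave a different time course. It had 8.21, 8.89 and 7.94 without treatment, 8.27, 8.81 and 8.89 with DMSO and 8.05, 7.40 and 7.69 with OTX015. At 4 h its difference from DMSO was -0.22, against -1.27 for the brightest ADGRF1 probe, and its arrays with and without drug overlapped. At 8 and 24 h the differences were -1.42 and -1.20. Against the untreated arrays they were -1.49 and -0.25, since DMSO lay 0.95 above untreated at 24 h. The size of the 24 h difference for this probe thus rests on the control used. Its correlation with the other ADGRF1 probes was 0.73 and 0.74 over the 9 arrays. Probe ILMN_1672559, annotated to that transcript as well, was below the floor on all 18 arrays and was not tested.

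In untreated cells the ADGRF1 probes ILMN_2241124 and ILMN_1787932 were at least 6.57-fold and at least 3.98-fold higher in MDA-MB-468. These bounds hold for the processing used here, and the direction was that of the brightest probe. The further DIO2 probe, ILMN_1749162, annotated to another transcript, was above the floor on 4 of 9 arrays of MDA-MB-468 and 0 of 9 of MDA-MB-231. It had a mean difference of -0.28 ± 0.38 (SD, n = 3) with OTX015, and its difference between the untreated lines was 0.24. The statements on DIO2 therefore rest on 1 probe, as do those on EDN2 and RERG, which have 1 probe each.

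**Figure D4:**
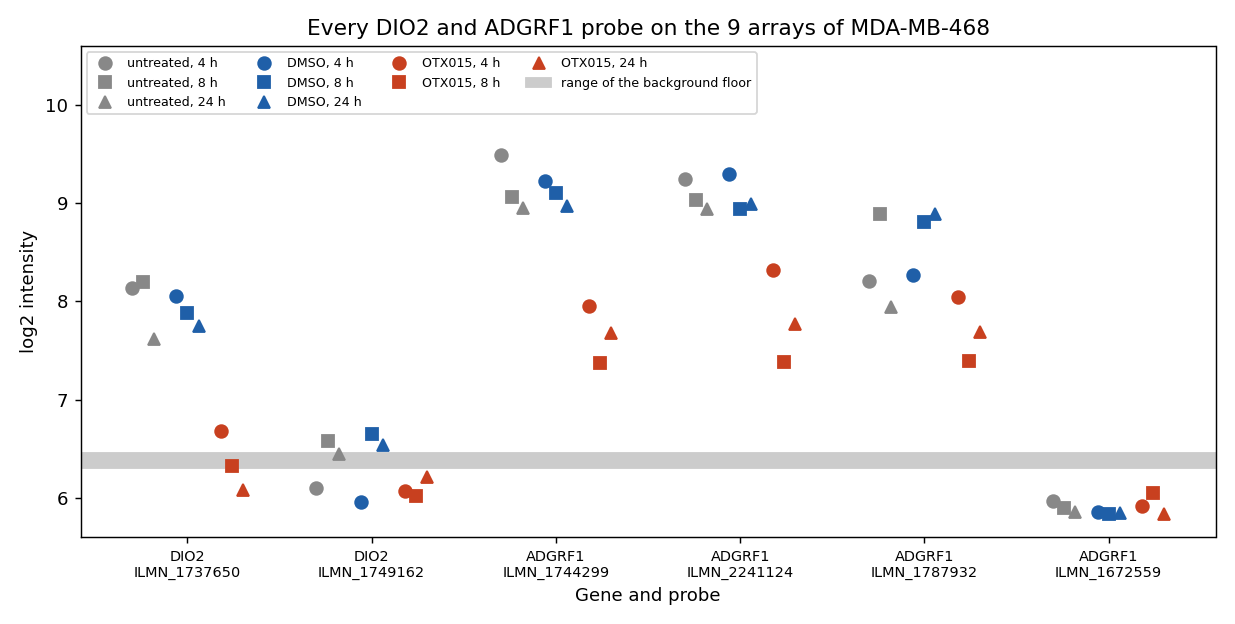
Log2 intensity (y axis) of every DIO2 and ADGRF1 probe (x axis) on the 9 arrays of MDA-MB-468, coloured by treatment with a symbol for each time, over the grey range of the floor. ILMN_1744299 and ILMN_2241124 show the OTX015 arrays apart from the rest, ILMN_1787932 shows them overlapping, and ILMN_1672559 lies under the floor.

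Of the other genes in 7 lists linked to the members' functions, 88 were tested, and 7 of them changed with OTX015 in MDA-MB-468. There 3 rose and 4 fell, where 2.52% of all genes rose and 3.34% fell, with a median log2 change of -0.06 against -0.02 over all genes. The calls were 0 with median scaling, 2 with the OTX015 and DMSO arrays only and 3 without the time term. In MDA-MB-231 limma called 0 of the 88, with 19 at an unadjusted p under 0.05, where 0.325% of all genes rose and 0.232% fell. In MDA-MB-468, 30 had an unadjusted p under 0.05. The share of all genes under that level was not counted, so nothing is read from these counts or from those of each list below. Of the 7, 3 passed without the 4 h arrays and 1 (PDE4B) with those of 24 h left out. When the 8 h arrays were left out, no probe on the whole array passed (lowest adjusted p = 0.135), so that fit bears on no single gene.

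None of the 5 tested genes of the endothelin system passed in MDA-MB-468 (3 with an unadjusted p under 0.05). EDN1, the gene of the related peptide endothelin-1, had 11.05, 9.96 and 9.58 with DMSO and 10.56, 9.44 and 9.26 with OTX015, a mean difference of -0.44 (adjusted p = 0.148 from limma). The difference on the MDA-MB-231 arrays was -0.48 (adjusted p = 0.00843), just under the minimum change. The EDN1 signal was above the floor in both lines. EDNRB, which encodes an endothelin receptor, was above the floor on 9 of 9 MDA-MB-231 arrays and 1 of 9 MDA-MB-468 arrays, the reverse of EDN2. ECE1 and ECE2, which encode the converting enzymes that release the peptides, had differences of 0.26 and 0.26. MME, which encodes a peptidase that degrades them, was above the floor in MDA-MB-468 alone, on 9 of 9 arrays against 0 of 9, as EDN2 was, but its difference with OTX015 was -0.45 (adjusted p = 0.123).

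Among 13 tested genes of thyroid hormone handling and action besides DIO2, 1 fell, and the median change was 0.06. RXRA, which encodes the retinoid X receptor that pairs with thyroid hormone receptors, had 9.10, 8.56 and 8.35 with DMSO and 7.94, 7.97 and 7.88 with OTX015 (-0.74, adjusted p = 0.0322 from limma). RXRA did not pass without the arrays of any 1 time point, with values from -0.87 to -0.53. THRA, a thyroid hormone receptor gene, was above the floor on 2 of 9 arrays of MDA-MB-468. DIO3, whose product inactivates the hormone, was above it on 2 of 9 as well. WSB1, USP33 and MARCHF6, whose products act on the ubiquitination or degradation of the deiodinase, had 0.30, 0.11 and -0.09.

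The deiodinase needs selenocysteine, and of 7 genes of selenoprotein synthesis 1 rose and 1 fell in MDA-MB-468. SEPHS1 and SEPHS2 encode selenophosphate synthetases, of which the SEPHS2 product makes the selenium donor. SEPHS1 had -0.84 (adjusted p = 0.0247 from limma) and SEPHS2 0.50 (adjusted p = 0.0489). SEPHS1 had -0.76 without the 8 h arrays and -0.73 without the 24 h arrays and did not pass so, and SEPHS2 did not pass without the arrays of any 1 time point.

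None of 13 other adhesion receptor genes passed in MDA-MB-468 (4 with an unadjusted p under 0.05), and their median change was -0.09. ADGRF4, a relative of ADGRF1 in the same subfamily, was above the floor on 3 of 9 arrays of MDA-MB-468 and 0 of 9 of MDA-MB-231, and had -0.44 (adjusted p = 0.0365), under the minimum change. ADGRF5, of that subfamily too, averaged 11.28 without drug on the MDA-MB-231 arrays and 6.55 on the MDA-MB-468 arrays, the reverse of ADGRF1. ADGRG1, above the floor on all 18 arrays, had -0.40 in each line (adjusted p = 0.0766 for MDA-MB-468, 0.00685 for MDA-MB-231).

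Of 24 RAS-like GTPase genes besides RERG, 2 rose in MDA-MB-468 and 0 fell (7 with an unadjusted p under 0.05). RASD1, a dexamethasone-induced RAS-like gene, had 7.63, 7.31 and 7.41 with DMSO and 9.29, 8.31 and 8.60 with OTX015. Its change was 1.28 (adjusted p = 0.00458 from limma), opposite in direction to RERG. RRAS, a RAS-related gene, had 0.66 (adjusted p = 0.0348), and it passed in 0 of 12 fits that each left out 1 array or 1 time point. RASD1 passed in 10 of the 12, and its change was 1.43 without the 8 h arrays and 1.33 without the 24 h arrays, where it did not pass.

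RERG was described as an estrogen-regulated gene, and 15 genes of estrogen receptors and estrogen-induced genes were tested. XBP1 alone fell in MDA-MB-468 (1 of 15) (8 with an unadjusted p under 0.05), and the median change was -0.28. XBP1, which encodes a transcription factor of the unfolded protein response, had 11.89, 11.62 and 12.34 with DMSO and 11.18, 11.35 and 11.28 with OTX015 (-0.68, adjusted p = 0.0426 from limma), and it passed in 0 of the 12 fits with arrays left out. ESR1 itself had -0.48 (adjusted p = 0.0473), under the minimum change, and was above the floor on 3 of 9 arrays. STC2, a secreted glycoprotein gene above the floor in MDA-MB-468 alone, had -0.82 (adjusted p = 0.0752).

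Of 11 cyclic AMP response genes, 1 fell in MDA-MB-468, and the median change was 0.09. PDE4B, which encodes a phosphodiesterase that degrades cyclic AMP, had 8.76, 8.22 and 8.60 with DMSO and 7.17, 6.602 and 6.99 with OTX015. The groups did not overlap, and the change was -1.61 (adjusted p = 0.00147 from limma). PDE4B passed in 11 of the 12 fits, and without the 8 h arrays, where no probe passed, its change was -1.60. In MDA-MB-231 it was close to the floor, from 6.15 to 6.53, and above it on 6 of 9 arrays.

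A test of the difference between the lines over all 18 arrays gave 2 of the 88 genes. PDE4B was more negative in MDA-MB-468 by -1.43 (adjusted p = 0.000115 from limma), as 1.66% of all genes were more negative, and RASD1 was more positive by 1.05 (adjusted p = 0.00556), as 1.08% were. Since PDE4B was near the floor in MDA-MB-231, the size of its difference is limited by the floor. Without the 8 h arrays the differences were -1.43 for PDE4B (adjusted p = 0.0652) and 1.10 for RASD1 (adjusted p = 0.146), and without the 24 h arrays that of RASD1 was 1.16 (adjusted p = 0.0798), none of which passed.

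**Figure D5:**
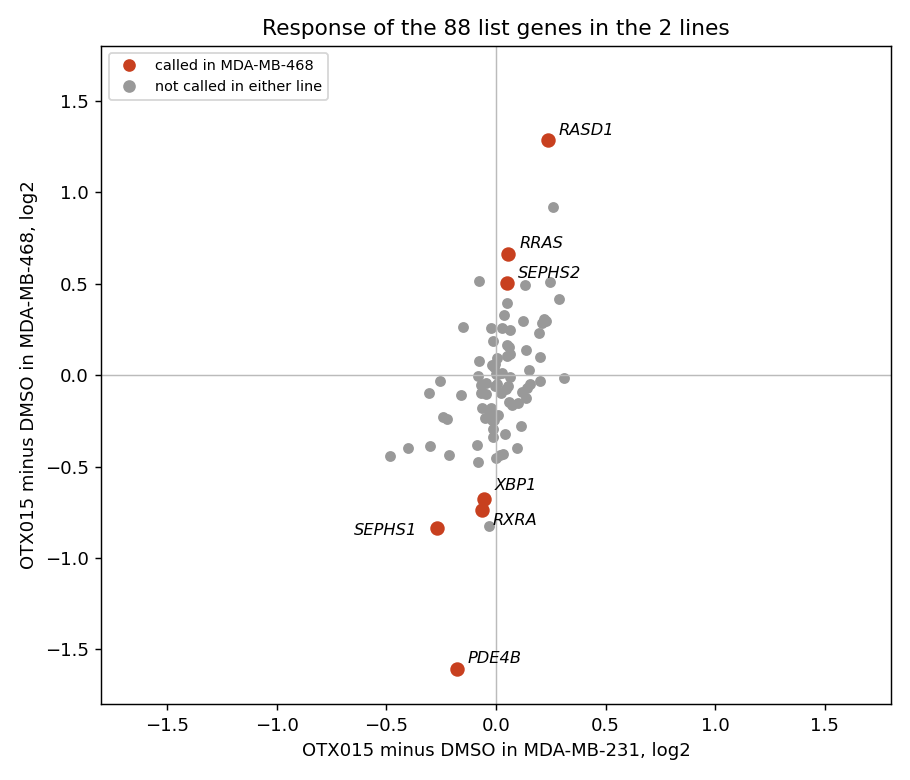
Mean log2 difference of OTX015 from DMSO in MDA-MB-468 (y axis) against that in MDA-MB-231 (x axis) for 88 genes of the 7 lists, members left out. Red points are the 7 genes called in MDA-MB-468, from -1.61 for PDE4B to 1.28 for RASD1, and grey points were called in neither line.

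The genes whose levels went most closely with each member over the 9 arrays of MDA-MB-468 are given as a description, since all share the drug contrast and the libraries. For EDN2 they were MVB12B (r = 0.993), PLEKHA2 (0.992), DIO2 (0.9903), PALMD (0.988) and LINC01132 (0.987). For DIO2 they were LIN9 (0.991), EDN2 (0.9903), PALMD (0.983), KRT10-AS1 (0.983) and MVB12B (0.981). For ADGRF1 they were LINC01132 (0.996), PLEKHA2 (0.992), C19orf12 (0.989), LINC00623 (0.989) and TACO1 (0.986). For RERG they were FARS2 (0.989), PLEKHS1 (0.986), TMEM223 (0.986), NRAD1 (0.985) and KCNK2 (0.982). Of these, MVB12B, PALMD, PLEKHS1, NRAD1 and KCNK2 were below the floor on all 9 arrays of MDA-MB-231. Genes with r over 0.9 numbered 334 for EDN2, 251 for DIO2, 355 for ADGRF1 and 331 for RERG, so that the named ones are the top of long lists.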

How the data were processed

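Per the labels, biotinylated cRNA was hybridized on bead arrays. The authors deposited a table of linear bead intensities made with GenomeStudio (its version is not given in the sources used here) and, in a further table, log2 values normalized between arrays by steps not given in the sources used here. The doses and the thresholds come from the study's methods, and the base of the log fold change there was taken as 2.

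With limma 3.58.1 in R 4.3.3, intensities were background-corrected (normexp without control probes, offset 50) and quantile-normalized, and their log2 was taken. Probes above the floor on at least 3 of 18 arrays were tested, 23631 of 47231. The brightest probe stood for a gene. Members were found by symbol, alias or gene identifier (30074 of 30113 probes with 1 symbol joined to RefSeq). A call needed an adjusted p (Benjamini-Hochberg over all probes tested) of at most 0.05 and a log2 difference of at least 0.5, except the difference between lines, which needed the p alone.

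OTX015 was set against DMSO on the 9 arrays of a line with a time term, the lines on the 6 untreated arrays with a time term (for the share over all genes), 24 h against 4 h on 6 arrays with a vehicle term, and the difference between lines on 18 arrays with time within line. The members and lists were chosen with earlier results of these data known. The members' change with OTX015 and their difference between the lines are described and not tested. Named genes are the members, up to 3 rising and 3 falling called genes of each list, further list genes picked after their values were seen, and the 5 genes with the highest correlation with each member. Alternatives varied background, normalization, filter, controls, terms and arrays. The number of arrays limits the precision. List genes that were not tested are not analysed here. Figures were drawn with matplotlib.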

Additional observations from a re-analysis of the deposited data

Results flagged for a closer look

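PDE4B, a cyclic AMP phosphodiesterase gene, differed between the lines in its response to OTX015, by -1.43 on the log2 scale (MDA-MB-468 minus MDA-MB-231, adjusted p = 0.000115 from limma on 18 arrays), with a fall at all 3 times in MDA-MB-468; it was above the floor on only 6 of 9 arrays of MDA-MB-231, which limits a fall there. RASD1, a RAS-like gene, differed by 1.05 (adjusted p = 0.00556), with a rise at all 3 times in MDA-MB-468. Dose differed with the line.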

How the results depend on the processing

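Arrays were matched by the time term, since the labels give no replicate numbers. The differences between the untreated lines, fixed in direction by the choice of genes, kept it under the 10 alternatives run for each. The change of EDN2 with OTX015 in MDA-MB-468 was -1.19 without background correction, -1.87 with an offset of 16 and -1.12 in the deposited log2 values, and that of DIO2 -1.23, -2.10 and -1.17. With arrays left out, it ran from -1.53 to -1.37 for EDN2, -1.61 to -1.44 for DIO2, -1.52 to -1.28 for ADGRF1 and -1.89 to -1.33 for RERG. The difference between untreated lines ran from 2.01 to 2.22 for EDN2, 1.62 to 1.95 for DIO2, 2.78 to 3.09 for ADGRF1 and 4.04 to 4.20 for RERG. That of 24 h from 4 h ran from -0.51 to -0.40 for EDN2, -0.58 to -0.24 for DIO2, -0.55 to -0.25 for ADGRF1 and -0.25 to -0.14 for RERG; it passed for EDN2 with an offset of 16 (-0.52, adjusted p = 0.0218 from limma) and for all 4 with median scaling (-1.04, -0.95, -1.10 and -0.93). Median scaling moved the median change with OTX015 by -0.11. Of the list genes, 7 were called in MDA-MB-468, against 0 with median scaling, 3 without the time term, 2 with the OTX015 and DMSO arrays only, and 0 to 5 with a time left out. In MDA-MB-231 0 were called, against 1 with an offset of 16, 1 with untreated cells as control and 0 to 2 with a time left out. The difference between lines was called for 2 list genes, and for 1 with median scaling and 0 to 3 with a time left out. Member values above the floor in MDA-MB-231 went from 1 to 0 with the floor at the 99th percentile. These last alternatives were chosen after seeing the data. The causes were not tested. Alternatives for the change with OTX015 in MDA-MB-231 were not run, since the members were below the floor. Dim signals limit the levels near the floor.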
